A study of Danio rerio with 6 samples.

Results

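The gamma M crystallin genes of the zebrafish were followed in whole embryos that lack normal rbm24a. They were taken as every row of the deposited gene table whose symbol starts with crygm, which gave 35 of 31624 genes. Of these, 21 are crygm2d copies and 14 carry other names (crygm1, crygm3 to crygm7, crygm2a to crygm2c, crygm2e, crygm2f, crygmx, crygmxl1 and crygmxl2). RNA was sequenced from AB strain embryos at 33 hours post fertilization, with 3 wild-type control libraries and 3 libraries of rbm24a mutants. The mutants carry a deletion of 8 bp in rbm24a that was made with TALENs, which are designed nucleases, and the design text of the series writes their genotype as rbm24a-/-. The samples are called independent in the labels, but a separate clutch for each is not stated, so p-values measure only the spread between these samples.

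Gamma-crystallins are small, compact structural proteins that lens fibre cells pack at very high concentration, which gives the lens its clarity and refractive power. The gamma M class is abundant in fish, whose dense round lens focuses light under water, and its proteins are rich in methionine. Lens fibre cells lose their nuclei and organelles as they mature, so their proteins depend on transcripts made earlier. Rbm24 proteins bind RNA and are known to act on the splicing, stability and translation of transcripts in heart, skeletal muscle and lens. The series is titled as a study of Rbm24 in crystallin build-up and lens clarity.

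Libraries held between 13242789 and 16043155 counted reads. Reads of rbm24a numbered 204, 247 and 211 in the wild-type libraries against 288, 514 and 366 in the mutant libraries. Its log2 change was 0.77 (SE 0.16; adjusted p = 0.00572 by the quasi-likelihood test of edgeR, with 8.3e-05 to 0.0711 over the alternatives), and counts over the whole gene cannot check for a deletion of only 8 bp. Mutant replicate 2 and wild-type replicate 2 had lower values than their group for genes with short transcripts, with median log2 differences of -0.19 and -0.11 over the 1654 shortest genes tested. The gamma M crystallin genes had median log2 differences of -0.36 and -0.18 in those libraries. In wild-type replicates 1 and 3 their medians were 0.31 and -0.13, beside 0.12 and -0.004 for the shortest genes. In mutant replicates 1 and 3 they were 0.14 and 0.11, beside 0.16 and 0.07. Exonic lengths of the tested gamma M genes ran from 622 to 2200 bp, with a median of 932 bp. A part of length in these differences between libraries was not tested.

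Gamma M crystallin transcripts were lower in the mutants. Of the 35 genes, 22 had a mean of at least 0.5 FPKM (reads per kb of exonic length and per 1000000 counted reads) over the 6 libraries and were tested, and 13 lay below this minimum. In the quasi-likelihood test of edgeR, with p-values adjusted over all genes (Benjamini-Hochberg) and a threshold of 0.05, 22 fell and 0 rose. Of all 16489 genes tested, 7.48% fell and 6.71% rose. At an unadjusted p under the same threshold 0 rose, and DESeq2 and limma also called 0 higher. The log2 changes ran from -0.65 to -4.32 with a median of -1.92, where the median of all genes tested was 0.00 to 2 decimals. The 20 tested crygm2d copies had a median of -1.98, and the 2 other tested genes, crygmx and crygmxl2, changed by -0.65 and -1.62. In bulk RNA of whole embryos, fewer lens cells and less of a transcript in each lens cell cannot be told apart.

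The spread between libraries was small beside these differences. The SD was 10.9% of the mean in wild-type and 14.3% in mutants, as medians over the tested genes, and in all 22 of them the 3 wild-type libraries lay above the 3 mutant libraries. Over all genes tested the groups did not overlap for 30.7%, and for 17.7% with the mutants lower. Among the tested gamma M genes 19 were at least 2-fold lower, against 2.9% of all genes tested. At least 4-fold lower were 9 of them. Over all genes tested a fall of 3.99-fold, that of crygm2d10, ranked 221 from the lowest log2 change, or at 1.34%. The falls of the tested gamma M genes ranked in the lowest 5% of all log2 changes for 20 genes and in the lowest 1% for 6. Two-sided adjusted p-values from edgeR lay between 1.67e-07 and 0.00524. The genes crygm2d15 and crygm2d16 had mutant means under the minimum and were tested through their wild-type reads, so that a fall was built into their being tested, whereas the other 20 had both group means above it.

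**Figure D1:**
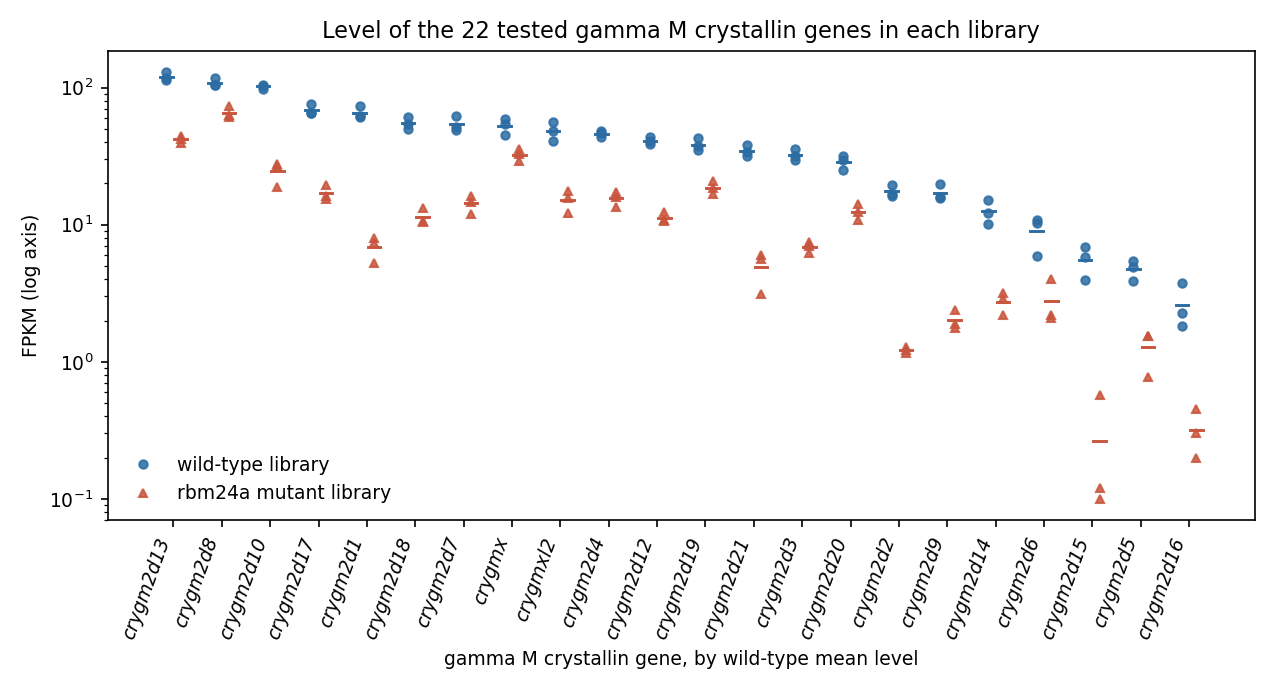
FPKM on a log axis of each tested gamma M crystallin gene in the 3 wild-type libraries (circles) and the 3 rbm24a mutant libraries (triangles), with short lines at the group means and genes ordered by wild-type mean. In every gene the wild-type points lie above the mutant points. On the log axis the group means lie closest at crygm2d8 and crygmx and furthest apart at crygm2d15.

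The most abundant members in wild-type embryos, per length, were crygm2d13, crygm2d8 and crygm2d10. Crygm2d13 (ENSDARG00000057460) was at 129.9, 114 and 117 FPKM in wild-type and 44.0, 42.6 and 39.6 FPKM in mutant libraries. The means were 120.4 ± 8.39 and 42.0 ± 2.28 FPKM (SD, n = 3 each), and the gene fell by 1.46 on the log2 scale (SE 0.12; adjusted p = 4.02e-06 by edgeR). Its mutant libraries lay close together and far under every wild-type library. Crygm2d8 (ENSDARG00000069817) was at 117, 104 and 104 FPKM against 61.3, 72.9 and 63.3 FPKM. This gene fell least among the crygm2d copies, by 0.67 on the log2 scale (SE 0.10; adjusted p = 0.000648 by edgeR), and became the most abundant member in the mutants. Crygm2d10 (ENSDARG00000087765) started from nearly the same wild-type level, at 105, 98.3 and 103 FPKM, and was at 27.95, 18.73 and 26.71 FPKM in mutants. It was 3.99-fold lower (SE of the log2 change 0.17; adjusted p = 6.26e-06 by edgeR), so copies of like wild-type level ended far apart. The ratio of crygm2d10 to crygm2d8 was 0.900, 0.942 and 0.996 in wild-type and 0.456, 0.257 and 0.422 in mutant libraries, without overlap.

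The largest falls were in crygm2d15, crygm2d2, crygm2d1, crygm2d9, crygm2d16 and crygm2d21. For crygm2d15 and crygm2d16, tested through their wild-type reads, a fall was built into their being tested. Crygm2d15 had 57, 34 and 52 reads in wild-type against 5, 1 and 1 in mutants, a log2 change of -4.32 (SE 0.53; adjusted p = 0.00013 by edgeR). With so few mutant reads its size is loosely set, and 5 of the 7 mutant reads came from replicate 1. Crygm2d2 (ENSDARG00000086917) had 196, 197 and 246 reads against 15, 14 and 18, and fell by 3.79 on the log2 scale (SE 0.21; adjusted p = 1.67e-07 by edgeR), or 13.8-fold. Its counts were even across the libraries of each group. Crygm2d1 (ENSDARG00000087324) combined a large fall with a high wild-type level. Its level was 74.1, 61.9 and 60.8 FPKM in wild-type and 8.01, 5.30 and 7.39 FPKM in mutants, a log2 change of -3.18 (SE 0.18; adjusted p = 2.18e-07 by edgeR), or 9.09-fold lower. It ranked 5 by wild-type level and 14 by mutant level among the 22 tested genes.

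The next of these, crygm2d9 (ENSDARG00000073750), went from 247, 204 and 212 reads to 25, 23 and 36 reads, a log2 change of -3.02 (SE 0.21). Crygm2d16 had 47, 24 and 31 reads against 4, 6 and 3 and changed by -2.99 on the log2 scale (SE 0.47). Its wild-type libraries spread from 1.84 to 3.74 FPKM, the widest spread relative to the mean among the tested genes. Crygm2d21 had 540, 492 and 484 reads against 84, 46 and 102, a log2 change of -2.74 (SE 0.22). For each of them the highest mutant library was far under the lowest wild-type library.

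Falls of middle size, between 2.87-fold and 4.66-fold, were seen in the remaining copies other than crygm2d19 and crygm2d20. Crygm2d17 was at 76.1, 65.0 and 65.5 FPKM in wild-type and 16.1, 19.5 and 15.4 FPKM in mutants. Crygm2d18 was at 61.1, 54.26 and 50.03 FPKM against 10.7, 13.3 and 10.4 FPKM. Their log2 changes were -1.97 (SE 0.13) and -2.22 (SE 0.14), and in both it was mutant replicate 2 that held the highest mutant value. Crygm2d7 was at 62.5, 51.7 and 48.8 FPKM against 14.6, 12.0 and 16.2 FPKM, and fell by 1.86 (SE 0.16). Crygm2d3 was at 35.9, 29.4 and 31.9 FPKM against 7.49, 6.24 and 7.02 FPKM, and fell by 2.17 (SE 0.15). In these copies mutant replicate 2 was instead the lowest. Crygm2d12 fell by 1.82 (SE 0.12) from 41.0 ± 2.39 to 11.2 ± 0.926 FPKM, and crygm2d4 by 1.52 (SE 0.12) from 46.1 ± 2.07 to 15.6 ± 1.91 FPKM (SD, n = 3 each). Among the low copies, crygm2d14 fell by 2.12 (SE 0.25) from 12.5 ± 2.57 FPKM, crygm2d5 by 1.82 (SE 0.31) from 4.75 ± 0.789 FPKM and crygm2d6 by 1.63 (SE 0.33) from 8.99 ± 2.72 FPKM (SD, n = 3 each). Crygmxl2 (ENSDARG00000074001) fell within the same range, from 56.4, 48.5 and 41.2 FPKM to 17.6, 12.3 and 15.6 FPKM, a log2 change of -1.62 (SE 0.18; adjusted p = 5.07e-05 by edgeR). Crygm2d6 had the largest adjusted p of the tested genes (0.00524 by edgeR), with 98, 97 and 58 reads against 39, 20 and 24.

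The smallest falls were in crygmx, crygm2d8, crygm2d19 and crygm2d20. Crygmx (ENSDARG00000053862) had 605, 686 and 554 reads against 391, 423 and 394 in the mutants. It fell by 0.65 on the log2 scale (SE 0.12; adjusted p = 0.00262 by edgeR), or 1.57-fold, with no overlap of the groups. Crygm2d19 had 1249, 1057 and 1191 reads against 518, 633 and 658 and fell by 1.00 on the log2 scale (SE 0.11). Crygm2d20 had 687, 666 and 589 reads against 284, 246 and 374 and fell by 1.14 (SE 0.15). Crygmx, crygm2d8 and crygm2d19 were the 3 tested genes that fell by less than 2-fold, crygm2d19 narrowly.

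**Figure D2:**
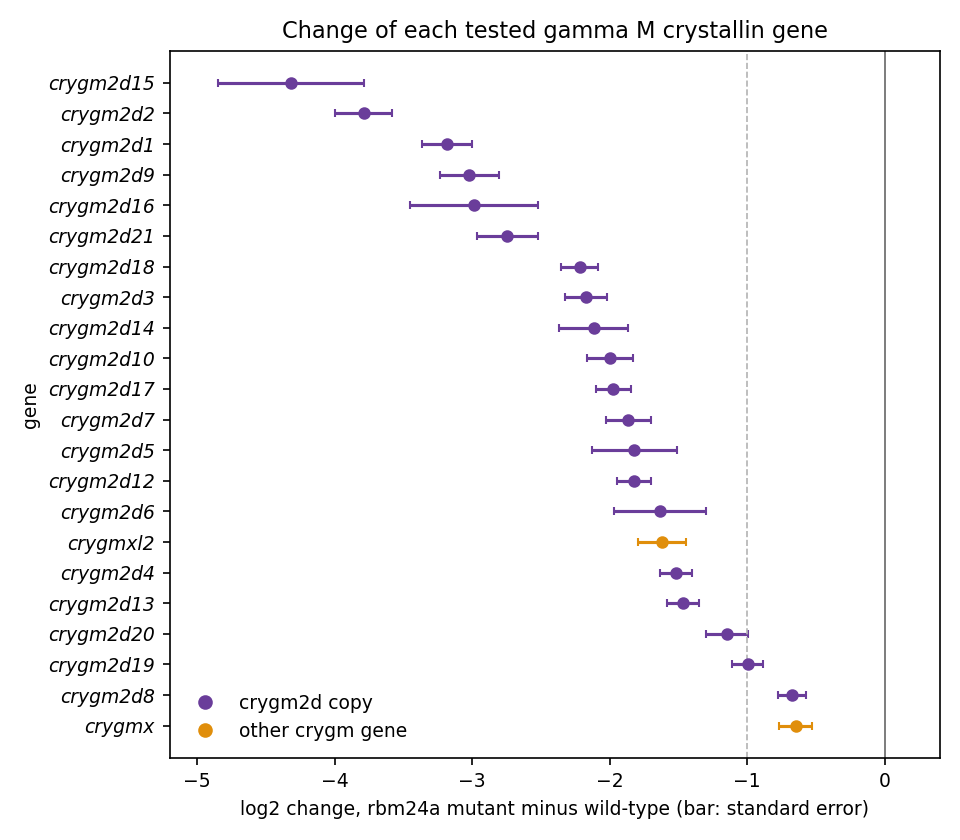
Log2 change (mutant minus wild-type) of each tested gamma M crystallin gene by edgeR, with bars for the standard error, crygm2d copies in purple and other crygm genes in orange. The solid line marks no change and the dashed line a 2-fold fall, and the genes spread from -0.65 at crygmx to -4.32 at crygm2d15.

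Because the members fell by different amounts, the make-up of the gamma M crystallin transcripts differed between the groups. Shares were taken of the summed gamma M FPKM, which is a measure per length and does not depend on how much gamma M RNA a library holds. Crygm2d8 made up 11.1%, 11.2% and 11.3% in wild-type and 19.7%, 23.3% and 20.6% in mutant libraries. Crygmx made up 5.10%, 6.32% and 4.95% against 10.5%, 11.5% and 9.43%, and crygm2d19 3.97% ± 0.191 against 6.01% ± 0.622 (SD, n = 3 each). These shares were higher in every mutant library than in any wild-type library. Crygm2d1 went the other way, from 7.01%, 6.64% and 6.64% to 2.57%, 1.69% and 2.41%. Crygm2d2 was at 1.82% ± 0.271 and 0.391% ± 0.0248, and crygm2d21 at 3.57% ± 0.0994 and 1.58% ± 0.515 (SD, n = 3 each). In all, the shares of 5 tested genes lay higher in every mutant library than in any wild-type library, those of 13 lay lower, and those of 4 overlapped (crygm2d4, crygm2d5, crygm2d6 and crygmxl2). Crygm2d10 went from 10.6% ± 0.658 to 7.89% ± 1.66, crygm2d18 from 5.69% ± 0.193 to 3.69% ± 0.475 and crygm2d15 from 0.571% ± 0.126 to 0.0847% ± 0.0853, while crygm2d20 went from 2.97% ± 0.227 to 4.01% ± 0.594 (SD, n = 3 each). Crygm2d13, at 12.5% ± 0.307 and 13.5% ± 0.638, moved little but was still higher in every mutant library. Crygmxl2, which overlapped, was at 5.01% ± 0.449 and 4.88% ± 0.883 (SD, n = 3 each). Together crygm2d13, crygm2d8 and crygm2d10 held 34.3% ± 1.06 of the gamma M FPKM in wild-type and 42.6% ± 0.390 in mutants (SD, n = 3 each). A share differs where the members' values changed unequally, and no test was run on the shares. The shares of a library add up to the whole, so a higher share of some members lowers those of others. The counts of shares without overlap have no counterpart over all genes. Crygm2d15 and crygm2d16, both with lower shares, were tested through their wild-type reads, so a fall was built into their being tested.

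**Figure D3:**
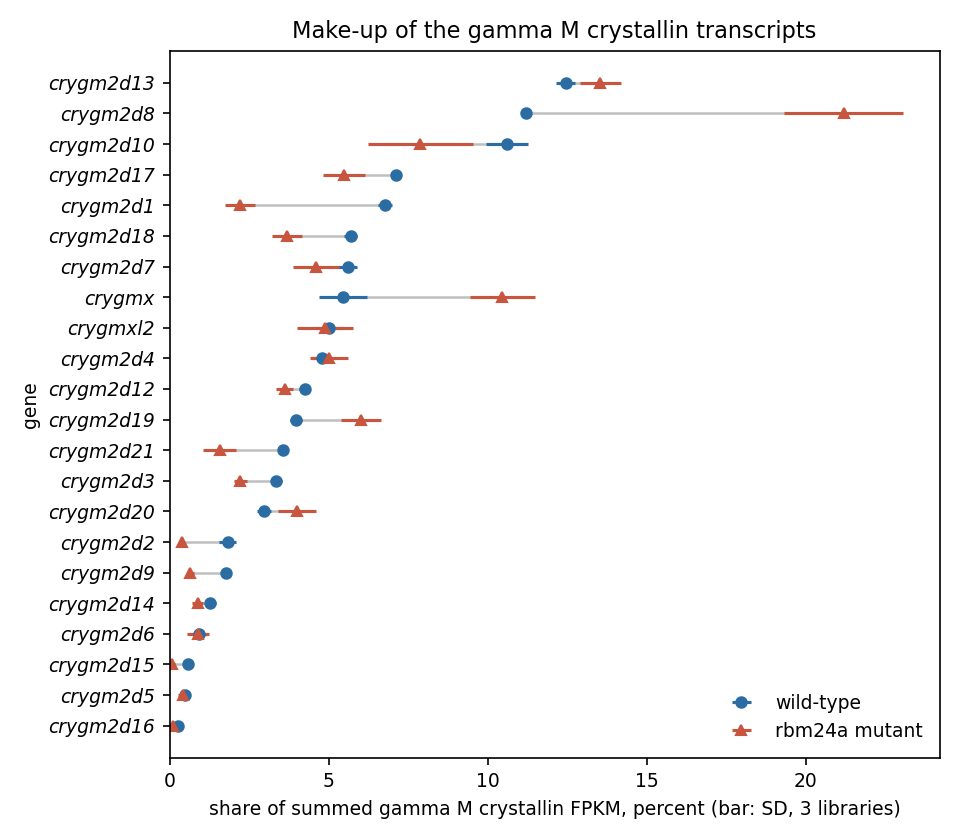
Share of the summed gamma M crystallin FPKM, in percent, held by each tested gene in wild-type (blue circles) and rbm24a mutants (red triangles), as means with bars for the SD over 3 libraries. The widest moves are the higher shares of crygm2d8 and crygmx and the lower share of crygm2d1 in the mutants.

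The order of levels was largely kept, since wild-type and mutant mean FPKM had a Spearman rho of 0.849 over the 22 tested genes. The log2 change had a rho of 0.368 with the wild-type level and of 0.11 with the exonic length, each over the same 22 genes. These genes share libraries, and similar copies may share reads, so the coefficients only describe them. At least 10 FPKM was reached as a group mean by 18 genes in wild-type and by 12 in mutants. In wild-type, replicate 1 held the highest value of 20 of the 22 genes, and without it the log2 ratio of the summed gamma M reads was -1.53 in place of -1.60. Mutant replicate 2 was the lowest mutant library for 11 genes and the highest for 9. Single values moved either way without it, to -2.45 from -2.74 for crygm2d21 and to -2.01 from -1.97 for crygm2d17. Why this library differed was not tested.

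Tandem copies of similar sequence can take reads from each other in counting, and a sum over the copies does not depend on how reads were split among them. Summed over the 21 crygm2d copies there were 11989, 10798 and 11401 wild-type reads against 3622, 3630 and 4233 mutant reads. Per 1000000 counted reads that was 828 ± 67.5 and 261 ± 3.52 (SD, n = 3 each), 3.17-fold lower in the mutants. The 14 other genes summed to 115 ± 15.2 and 49.4 ± 3.01 reads per 1000000 (SD, n = 3 each), 2.32-fold lower. Nearly all of this sum came from crygmx and crygmxl2, which held 1845 and 2846 of its 4727 wild-type reads. These 2 genes were 1.57-fold and 3.07-fold lower. The values of single copies are uncertain in this respect, and the sums too would miss reads that the counting dropped or gave to other genes, which was not tested. The mutant libraries were nearer to each other per 1000000 counted reads than after TMM scaling, where the crygm2d sum was 266 ± 21.5 (SD, n = 3).

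The 13 genes below the minimum had few or no counted reads, and reads that fit several copies may have been counted elsewhere or not at all. No read was counted in any library for 5 of them, namely crygm1, crygm6, crygm7, crygm2b and crygm2d11, which allows at most 0.0408 to 0.0585 FPKM if 3 reads over the 6 libraries are taken as the limit of a count of 0 (counting error only). Another 7 had between 1 and 10 reads in all libraries together. Among these, crygm4 had 0, 2 and 0 wild-type reads against 0, 3 and 5 mutant reads, a ratio of 3.76 with a 95% exact interval of 0.750 to 36.3, so no difference was detectable at this depth. Crygm2c had 1, 0 and 0 against 1, 3 and 0 reads. Crygm2a, crygm2e, crygm2f, crygm3 and crygm5 had at most 2 reads in a group.

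Crygmxl1 (ENSDARG00000018797) was the member just under the minimum, with a mean of 0.412 FPKM over the 6 libraries and a wild-type mean above the minimum. The next member up, crygm2d16, had a mean of 1.47 FPKM. Crygmxl1 had 9, 13 and 7 wild-type reads against 0, 1 and 0 mutant reads. The ratio of mutant to wild-type reads, at equal depth, was 0.0324, with a 95% exact interval of 0.000793 to 0.195 for counting error. Where no minimum was set it was called lower by edgeR (log2 change -4.46, SE 1.03, adjusted p = 0.00126), at a setting in which 6.76% of 25307 genes were lower. The genes named crygmx and its likes differed widely in level, with wild-type means of 0.797 FPKM for crygmxl1, 52.7 FPKM for crygmx and 48.7 FPKM for crygmxl2.

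Along the array of crygm genes, the tested members that could be placed formed a single stretch, with 1 untested member among them. By the RefSeq annotation of the assembly GRCz12tu, used only for which genes neighbour each other, 32 crygm genes lie in a single array, with 5 genes of other names among them. The authors' symbol and the table of gene names agreed for 28 of the 35 genes, and 25 of these could be placed in the array. In array order the first 6 were crygm7, crygm6, crygm1, crygmxl1, crygm2a and crygm2e, none of which reached the minimum. The next 16 ran from crygm2d13 to crygm2d1 and were all crygm2d copies, of which 15 were tested and fell. The untested one was crygm2d11, with no counted read. Crygm2d8, crygm2d9, crygm2d17, crygm2d18 and crygm2d19 were not placed, nor were crygm2b and crygm2c, which were below the minimum. The last 3 were crygm2f, crygm5 and crygm3, which had at most 2 reads in a group. Among placed genes of the array the log2 change had a Spearman rho of -0.307 with their order, over 15 genes. Genes next to each other in this order could differ widely, as did crygm2d10, 3.99-fold lower, and crygm2d2, 13.8-fold lower. Genes that were not placed may lie between them. Crygmx and crygmxl2 lie close together on another chromosome and changed by -0.65 and -1.62. Crygm4, below the minimum, lies on neither of these chromosomes. The ratio of crygmx to crygmxl2 in FPKM was 0.956, 1.22 and 1.10 in wild-type and 1.86, 2.93 and 1.86 in mutants, without overlap.

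**Figure D4:**
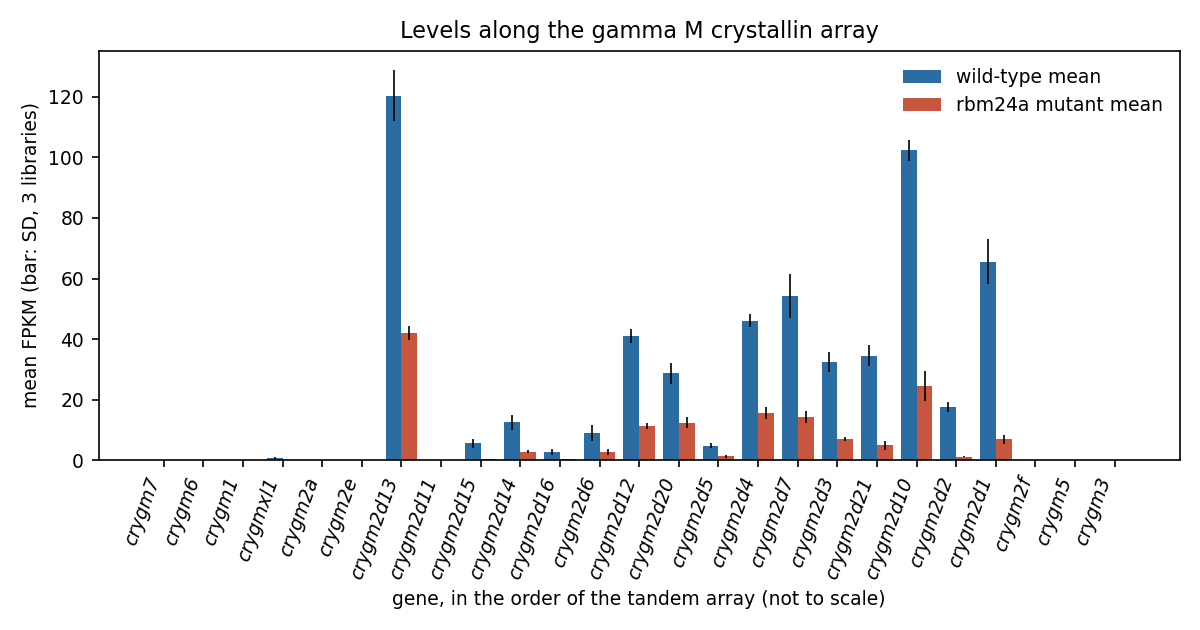
Mean FPKM with bars for the SD over 3 libraries, in wild-type (blue) and rbm24a mutants (red), for the 25 genes that could be placed, in their order along the array and not to scale. The tested genes form the middle stretch of crygm2d copies, and the flanking genes have group means of at most 0.797 FPKM.

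Other crystallins also fell. Of the 22 alpha, beta, gamma N and gamma S crystallin genes 14 were tested, of which 12 fell and 0 rose. Over all genes tested 7.48% fell and 6.71% rose. The median log2 change of these crystallins was -0.92. Without adjustment 0 rose as well, and DESeq2 and limma called 0 higher. Crybb1, crybb1l2, cryba4 and cryba1b, the most abundant of them, changed by -0.79, -0.74, -0.96 and -0.88 on the log2 scale. Summed per length, gamma M genes held 30.2%, 28.3% and 32.1% of all crystallin FPKM in wild-type and 19.8%, 21.5% and 20.7% in mutants. Every mutant library lay below every wild-type library in this share, on which no test was run. The ranges of single genes overlapped, since cryaa, a chaperone of the lens, changed by -1.91 while crygmx and crygm2d8 changed by less than the median of the other crystallins.

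Among genes of lens fibre membranes and filaments 11 were tested, of which 9 fell and 0 rose, with a median log2 change of -1.23. None was higher without adjustment, by DESeq2 or by limma. The most abundant were lim2.4, lim2.1 and lim2.3, lens membrane protein genes, at -0.86, -0.32 and -0.38, and the water channel gene mipa at -1.23. Lim2.1 and lim2.3 did not pass (adjusted p = 0.158 and 0.0519 by edgeR), with adjusted p down to 0.0278 and 0.00893 under the alternatives. Transcripts of regulators that act in lens development differed less. Of 19 tested, 0 fell and 0 rose by edgeR, beside 7.48% and 6.71% of all genes. Their median was -0.04, and 2 were lower and 2 higher at an unadjusted p under 0.05. DESeq2 called 0 lower and 0 higher, and limma 2 lower and 0 higher. The most abundant, sox3, meis1b, sox2 and meis2a, are also active in the brain, so their levels in whole embryos say little of the lens.

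Markers of the retina, the neighbouring tissue of the eye, were measured alongside. Of 17 tested, 2 fell (11.8%, beside 7.48% of all genes) and 1 rose (beside 6.71% of all genes), with a median log2 change of -0.18, so these counts were close to the background. The genes that fell were atoh7, a factor of early retinal neurons, at -1.69 and foxn4 at -0.55 (foxn4 and hmx1 were named after their values were seen). Hmx1 passed narrowly at 0.48 (adjusted p = 0.0439 by edgeR, with 0.00171 to 0.18 over the alternatives), and did not pass with DESeq2, with either limma setting or in 5 of the 6 fits that left out 1 library. The abundant neurod1 and six6b were at -0.25 and -0.35 and did not pass by edgeR (adjusted p = 0.207 and 0.0707). Their part in the fall of the gamma M genes was not tested.

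**Figure D5:**
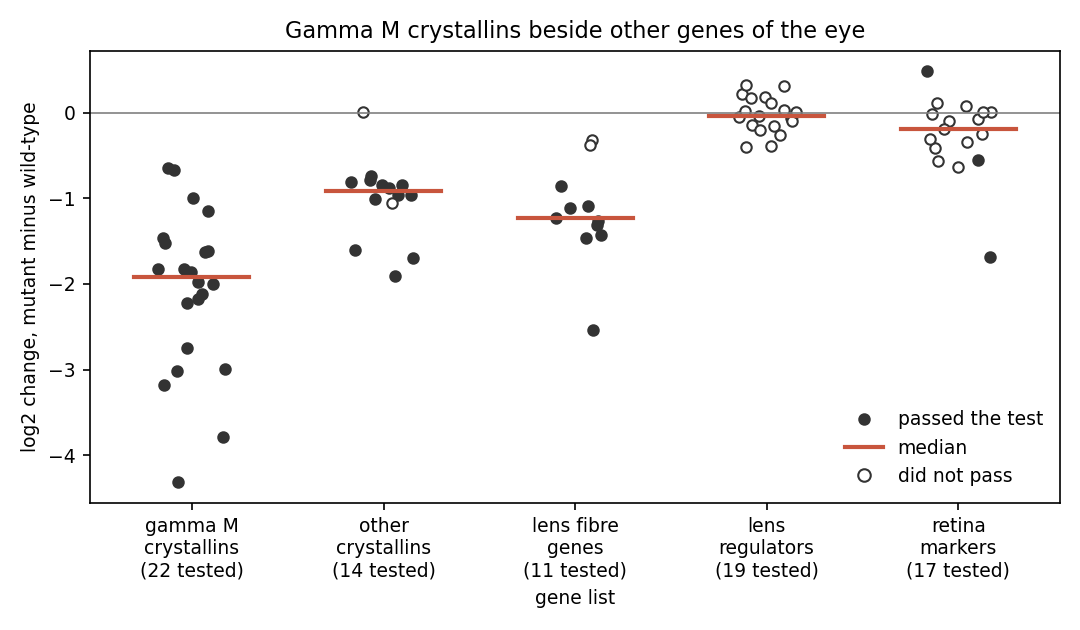
Log2 change (mutant minus wild-type) of every tested gene in 5 lists, with filled points for genes that passed edgeR's test, open points for those that did not and red lines at the medians. The medians are -1.92 for gamma M crystallins, -0.92 for other crystallins, -1.23 for lens fibre genes, -0.04 for lens regulators and -0.18 for retina markers.

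The authors' deposited table of changed genes lists 19 gamma M crystallin genes, all of them lower. In the authors' deposited table the log2 changes are -2.95 for crygm2d1, -3.18 for crygm2d2, -1.40 for crygm2d13 and -1.50 for crygmxl2. For every listed gene that was tested here, the authors' deposited table gives a smaller fall than edgeR, by 0.0606 to 2.02 on the log2 scale. Among genes of few reads, the authors' deposited table gives -1.66 for crygm2d16, -2.30 for crygm2d15 and -1.04 for crygmxl1. Crygm2d8, crygm2d19, crygm2d21 and crygmx were called here and are not among the rows of the authors' deposited table used here. Crygm2d8, crygm2d19 and crygmx fell by less than 2-fold, but crygm2d21 was 6.7-fold lower by edgeR. Its absence from the rows used here does not show that the authors found no change.

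Splicing tables of the authors' deposited data held 1 event in a gamma M crystallin gene. It is an alternative 3' splice site of crygm2d20, at which an exon of the minus strand (GRCz11, chromosome 9, 22401963 to 22402205) can lose 20 bp at its upstream edge and then spans 22401963 to 22402185. The authors' deposited table gives inclusion levels of the longer form of 1.0 in each wild-type library and of 0.931, 0.94 and 1.0 in the mutants, with an FDR of 0.00033. The shorter form had 0, 0 and 0 wild-type reads against 12, 9 and 0 mutant reads, beside 185, 160 and 224 reads of the longer form in the mutants, by the authors' deposited table. Groups overlapped at a level of 1.0, so the use of the shorter site was seen in only 2 of 3 mutant libraries. The sheet states 1030 events and 556 were analysed here, and the sheets on exon skipping, intron retention, exclusive exon pairs and 5' splice sites held 0 events in these genes.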

How the data were processed

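Whole-embryo RNA was read as 100 bp paired ends after a TruSeq RNA library preparation, per the labels. Counts of reads per gene, as whole numbers, were deposited with exonic lengths, and the deposited FPKM values equalled the count per kb and per 1000000 counted reads within 0.005. HISAT2 2.0.1, HTSeq 0.6.1, bcl2fastq 2.17.1.14, cutadapt and DESeq2, with the assembly GRCz11, are named per the submitters' processing notes, without role or order. The sources used here do not say how reads that fit several copies, or either strand, were counted. A second deposited table holds the authors' log2 fold changes and adjusted p-values, and splicing sheets hold an inclusion level difference, which was treated as a score, and an FDR, a p-value adjusted by the authors. Wild-type was taken as the first sample of the splicing comparison, from its name in the labels.

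Counts of all 6 libraries were tested with edgeR 4.0.16 (R 4.3.3), TMM scaling and the two-sided quasi-likelihood test, after a minimum mean of 0.5 FPKM, with Benjamini-Hochberg adjustment over all genes. Changes are given as mutant minus wild-type. The fit was tested on simulated data. DESeq2 1.42.0, limma 3.58.1 on log2(FPKM + 1) or log2(FPKM + 0.1), other filters, a length correction, a replicate block and leaving out libraries were alternatives. Intervals and floors cover counting error only. Members and lists were chosen with earlier results of these data known. Text names the tested members, those of highest reads below the minimum, and the 4 most abundant genes of each list, except 1 retina marker that is not reported here. Lists were matched by symbol and, for 3 genes, through a table of gene names. That table gives 2 members (crygm2d8 and crygm2d9 of the authors) the symbols crygm2d17 and crygm2d18 and lacks 5 identifiers, so the authors' symbols are used.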

Additional observations from a re-analysis of the deposited data

How the results depend on the processing

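The 22 tested gamma M crystallin genes were called lower in each of the fits that tested them, with an adjusted p of at most 0.0457, by edgeR, DESeq2 or limma. With a minimum of 5 FPKM 19 of them were tested and fell, beside 738 of all 7922 genes tested. Among these 19, crygm2d2, crygm2d6, crygm2d9, crygm2d14 and crygm2d21 had mutant means under 5 FPKM. They passed this minimum through their wild-type reads, so a fall was built into their being tested. With no minimum 30 gamma M genes were tested and 23 fell, beside 1710 of all 25307 genes. The one added was crygmxl1. Leaving out each library gave 22 lower genes each time and a log2 ratio of the summed gamma M reads between -1.64 and -1.53. With at least a 2-fold change required, 478 of all 16489 genes were lower and 375 higher. At this setting 1 of the 2 tested genes outside the crygm2d copies and 4 of the 14 tested other crystallins were lower. Of the lens regulators, 1 of 14 was lower with a minimum of 5 FPKM, beside 738 of all 7922 genes tested. With limma on log2(FPKM + 1) or log2(FPKM + 0.1) 2 of 19 were lower, beside 1303 and 1268 of all 16489 genes. When 1 library was left out, 0 to 1 lens regulators were lower and 0 to 1 higher. Of the 17 retina markers, 1 was lower and 0 higher at 2-fold. With DESeq2 or the same limma settings 0 were higher, beside 1098, 850 and 839 of all genes. When 1 library was left out, 2 to 4 retina markers were lower and 0 to 1 higher. When 1 library was left out, 729 to 2435 of all 16489 genes tested were lower and 640 to 2393 higher. The most were called without mutant replicate 2, where 4 retina markers were lower. Without replicate 2 of both groups, an alternative chosen after seeing the data, 22 gamma M genes were lower, as were 1 lens regulator, with 1 higher, and 4 retina markers. Over all genes this last fit called 2439 lower and 2355 higher, against 1234 and 1107 in the main fit.

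The replicate block also called 22 gamma M genes lower, with 1 of 19 lens regulators and 4 of 17 retina markers lower. The same counts were lower with the length trend removed as well. Over all 16489 genes the block called 3388 (1814 lower), against 2341 (1234 lower) in the main fit. With the length trend also removed, 3430 genes were called (1788 lower). Deviations of same-numbered libraries correlated by 0.19, 0.322 and 0.0522, and not every library correlated best with its own number, so the libraries were not taken as paired. Low depth limits crygm2d15, crygm2d16 and the members below the minimum. Protein and promoter sequences were not analysed here.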
